A study of Mus musculus with 22 samples.

Results

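The comparison set the livers of adiponectin-knockout mice at ZT6 against those at ZT18, 12 h apart, over every feature of the array. Zeitgeber time (ZT) counts hours from lights on, so ZT6 falls in the light phase, when mice mostly rest, and ZT18 in the dark phase, when they mostly eat and move. All arrays of these times were taken, 3 at ZT6 and 3 at ZT18, out of 22 in the series, and 22206 features were compared. The mice were males of 3 to 8 months that carry a whole-body deletion of Adipoq (the B6;129-Adipoqtm1Chan/J line on C57BL/6J), group-housed in light and dark phases of 12 h each with free access to chow and water. Both groups share this genotype, and arrays of ADQ-WT mice are not analysed here, so no value below separates an effect of the deletion from one of the time of day. Single arrays are named by time and letter, ZT6a to ZT6c and ZT18a to ZT18c. The arrays were Clariom S, and the deposited values behave as log2 levels, although their base is not stated.

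The liver's daily programme is driven by a transcription loop in every cell and by signals that come with feeding, fasting, body temperature and hormones. In the loop, CLOCK and BMAL1 bind E-boxes and switch on the Per, Cry and Nr1d genes, whose proteins feed back on it, and PAR bZIP factors such as DBP act on D-boxes. In a fed liver, insulin and sugar favour glycogen and fat synthesis and the secretory pathway is busy, whereas fasting favours autophagy, amino acid breakdown and glucose output. A pair of times 12 h apart shows genes whose levels peak near one of them; a gene that crosses its daily mean at both times shows little difference even where its daily swing is large.

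A feature was called where the adjusted p of the difference (limma, Benjamini-Hochberg adjustment over all features) was under 0.05. Of the 22206 features, 252 were called, 1.13%: 87 were higher at ZT6 (0.392%) and 165 were higher at ZT18 (0.743%). After quantile normalization the split was 96 higher at ZT6 and 117 higher at ZT18, so 45.1% of the calls rather than 34.5% were higher at ZT6. The 252 called features stand for 230 named genes, 82 higher at ZT6 and 148 higher at ZT18, with 21 called features that have no symbol. The median fold of the called features was 2.32 and 198 of them differed at least 2-fold. A second, untested description counts features whose 3 ZT6 and 3 ZT18 arrays do not overlap: 2016 lay wholly higher at ZT6 (9.08%) and 2261 wholly higher at ZT18 (10.2%). Calls were more frequent among features above the median level of the array (2.08%) than at or below it (0.189%). An unadjusted p under 0.05 in limma was found for 2992 of the 22206 features, and for 2010 of the 11103 above the median level. These counts are the background for such counts in the lists below. Differences are log2, ZT6 minus ZT18, given with the standard error (SE) of the fit.

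The ZT6 arrays were not alike. Tff3, a secreted trefoil peptide of mucous epithelia, read 2.49 in ZT6a, 10.35 in ZT6b and 11.6 in ZT6c, against 2.31, 2.97 and 2.33 at ZT18. The other secretory epithelium markers did not follow it: the log2 of the summed linear level of the 13 genes left without Tff3 was 8.65, 8.66 and 8.47 in ZT6a to ZT6c and 8.59 to 8.74 at ZT18. Among the 9 bile duct markers, Tm4sf4 (11.75, 13.56 and 12.93 at ZT6, 11.55 to 11.79 at ZT18) and Onecut1 (10.8, 12.76 and 12.3 against 8.86 to 10.34) were highest in ZT6b and ZT6c; both are also made by hepatocytes. The other 7, among them Krt7, Krt19 and Epcam, summed to 7.87, 8.33 and 7.97 at ZT6 and 7.78 to 8.23 at ZT18. Car3, a carbonic anhydrase of fat that is abundant in male liver, read 18.5, 17.36 and 17.15 at ZT6 and 18.31 to 18.48 at ZT18, while the 10 adipocyte markers it belongs to had a median difference of 0.203. In whole-tissue RNA, fewer cells of a type and less RNA per cell cannot be told apart. The 14 hepatocyte markers summed to 22.63 to 22.79 in all 6 arrays, and none of the 11 cell marker lists held a called gene. Adipoq itself read 3.46 to 4.07 in the 6 arrays, near the arrays' lower quartiles of 3.67 to 3.91. The median SD between arrays was 0.31 at ZT6 and 0.201 at ZT18. Results are therefore given below with ZT6a alone as well, in which case the spread of the single array is assumed to be that of the other groups. With ZT6a alone, 44 features were called (26 higher at ZT6, 18 higher at ZT18), and 18 of them belong to the 252. The median share of the difference that was left was 85.2% for features higher at ZT6 and 85.7% for those higher at ZT18, and 25 of the 252 kept under 50% of it. ZT6a and the same ZT18 arrays entered the calls, and 250 of the 252 have no overlap. These shares are therefore partly fixed by the selection and give no independent support to the calls. The part of Tff3, Tm4sf4, Onecut1 and Car3 in any result was not tested. Leaving out any single array also moved the number of calls: it was 82 without ZT6b, 186 without ZT6c, 440 without ZT6a, and 106, 87 and 91 without ZT18a, ZT18b and ZT18c.

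**Figure D1:**
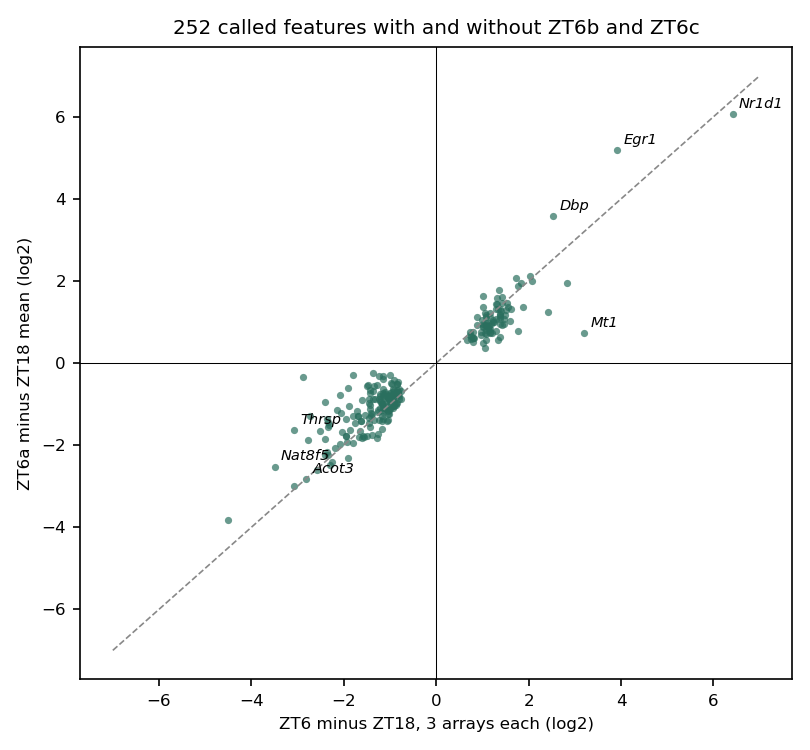
Difference of each of the 252 called features with 3 ZT6 arrays (horizontal axis, log2) and with ZT6a alone (vertical axis, log2), both against the mean of the 3 ZT18 arrays; the dashed line marks equality. Nr1d1 (6.42 and 6.07) and Acot3 (-2.81 and -2.83) lie near it, Mt1 (3.21 and 0.74) lies toward 0, and Egr1 (3.92 and 5.19) and Dbp (2.54 and 3.57) lie beyond it.

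Because the clock loop works through E-boxes and D-boxes, promoters of called genes are shown first. Promoters run from 250 bases before to 50 after the start in RefSeq's GRCm38.p6 table, which held 19143 promoters of 15691 measured genes, among them 65 called genes higher at ZT6 (92 promoters) and 123 higher at ZT18 (180 promoters). The E-box CACGTG, searched like all motifs on both strands and with overlaps between motifs kept, was in 9.78% of the promoters of genes higher at ZT6, 10.6% of those of genes higher at ZT18 and 8.11% of all. The D-box pattern TTANGTAA, in which N stands for any base, was in 4 of 92 (4.35%), 7 of 180 (3.89%) and 2.06% of all. The heat shock element pair GAANNTTC was in 10.9%, 12.8% and 6.9%. TATAAA was in 4.35% of the promoters of genes higher at ZT6, 13.3% of those of genes higher at ZT18 and 12.3% of all. The cAMP response element TGACGTCA was in 1.09%, 2.22% and 2.31%, the sterol response element TCACNCCAC in 0 of 92, 1.11% and 1.22%, and CCAAT in 40.2%, 42.2% and 37.9%. These shares are descriptions, and a match is not a binding site.

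The 250 bases before the start are printed for the called genes of largest difference with an E-box or D-box match, the match in capitals. Cbs (chr17:31637206-31637455, minus strand, E-box 229 bases before the start) was higher at ZT6. Zfp600 (chr4:146156577-146156826, plus strand, match to the D-box pattern 124 bases before the start) and Nr1i3 (chr1:171213720-171213969, plus strand, E-box 244 bases before the start) were higher at ZT18. The match in Zfp600 has A at the open base N of the pattern, and whether it works as a D-box was not tested.
Cbs: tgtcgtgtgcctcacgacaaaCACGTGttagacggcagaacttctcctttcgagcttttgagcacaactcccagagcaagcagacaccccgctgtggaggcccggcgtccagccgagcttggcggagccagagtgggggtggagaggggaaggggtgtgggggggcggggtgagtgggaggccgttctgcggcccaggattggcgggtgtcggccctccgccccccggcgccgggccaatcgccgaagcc
Zfp600: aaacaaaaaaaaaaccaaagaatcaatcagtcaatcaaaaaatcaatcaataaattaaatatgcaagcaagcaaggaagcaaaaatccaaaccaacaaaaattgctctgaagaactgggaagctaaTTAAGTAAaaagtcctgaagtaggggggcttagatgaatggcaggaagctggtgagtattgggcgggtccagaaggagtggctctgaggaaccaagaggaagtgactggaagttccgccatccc
Nr1i3: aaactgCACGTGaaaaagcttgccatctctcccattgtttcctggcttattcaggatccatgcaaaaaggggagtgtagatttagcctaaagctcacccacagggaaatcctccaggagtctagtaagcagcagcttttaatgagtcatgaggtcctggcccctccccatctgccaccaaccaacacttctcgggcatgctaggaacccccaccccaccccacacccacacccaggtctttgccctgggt

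Among features with a gene symbol, leaving out predicted genes, the largest differences reached beyond the clock. Higher at ZT6, after Nr1d1, came Egr1 (an immediate early transcription factor), Mt1 (a metallothionein that binds zinc), Slc25a30, Dbp, Ect2 (a RhoA exchange factor of dividing cells), Abcg8 (which pairs with Abcg5 as the sterol exporter), Slc25a47, Slc8b1 (the mitochondrial sodium-calcium exchanger), Flcn, Agxt, Nr1d2, the olfactory receptor gene Olfr77, Slc25a22 and Cbs, with differences from 6.42 down to 1.56. Of these 15, 4 are carriers of the inner mitochondrial membrane (Slc25a30, Slc25a47, Slc25a22 and Slc8b1). Higher at ZT18 came Nat8f5, Thrsp, H1f2 (a linker histone), Usp2 (a deubiquitinase), Acot3, Col27a1 (a fibrillar collagen), Zfp600, Ppp1r3b, Per2, Nat8f3, Tsc22d3, Nr1i3, Cry1, Cyp2a4 and Slc17a8 (a vesicular glutamate transporter), with differences from -3.49 to -2.35. Ect2 read 5.65, 8.75 and 6.03 at ZT6, and without ZT6b its difference of 2.41 was 1.44 and not called (limma adjusted p = 0.0622). A called feature with no symbol had a larger difference than any named gene higher at ZT18, at -4.51. Several of these genes are low on the array at one time: Olfr77 read 3.36 to 4.14 at ZT18, Nat8f3 read 3.38 to 4.66 at ZT6, and Zfp600 read 4.2 and 4.79 in ZT6b and ZT6c.

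**Figure D2:**
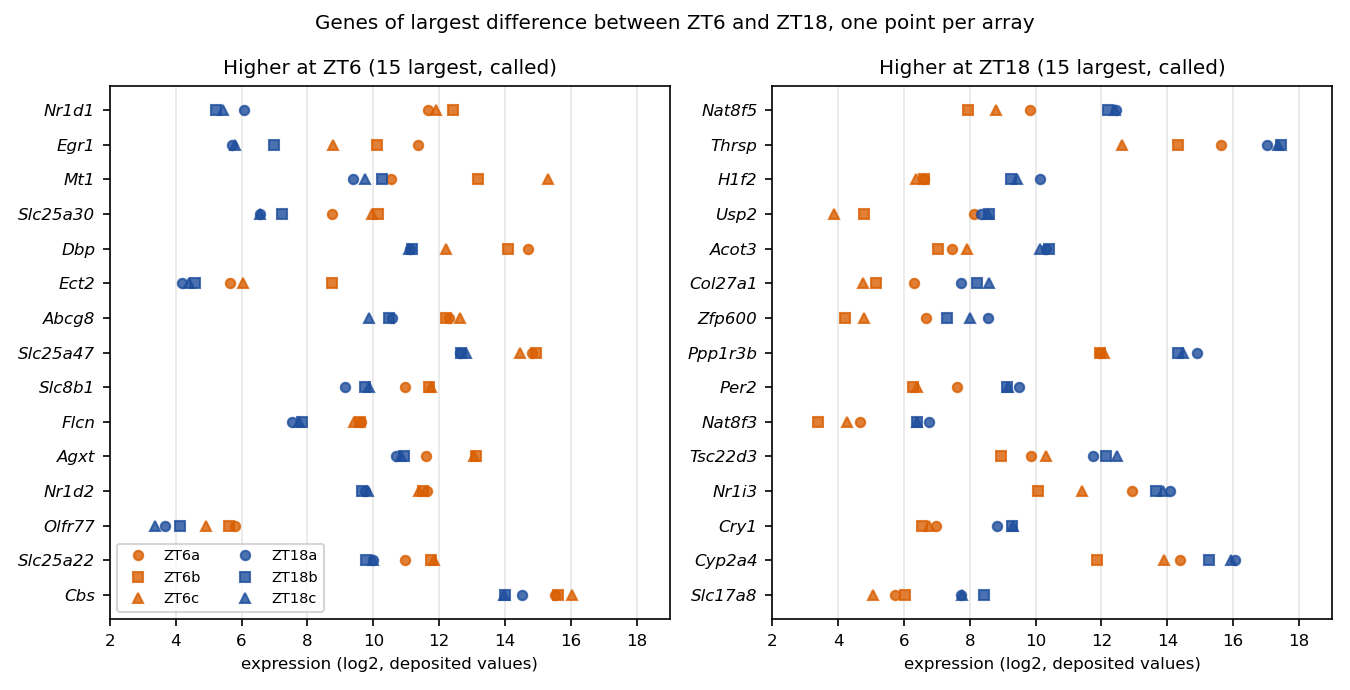
Deposited log2 level of the 15 called genes of largest difference in each direction whose arrays do not overlap; 1 point per array, orange for ZT6 and blue for ZT18, the marker shape giving the array letter. The ZT6 arrays of Mt1 spread from 10.53 to 15.3 and its ZT18 arrays from 9.37 to 10.25. Those of Usp2 spread from 3.87 to 8.14 at ZT6 and from 8.33 to 8.57 at ZT18. H1f2 goes the other way, from 6.38 to 6.61 at ZT6 and from 9.24 to 10.14 at ZT18.

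Among the 14 core clock genes measured, 2 were called higher at ZT6 (14.3%, against 0.392% of all features). Called higher at ZT18 were 3 (21.4%, against 0.743% of all features). Nr1d1, the REV-ERB alpha repressor, read 11.65, 12.43 and 11.91 at ZT6 and 6.07, 5.22 and 5.45 at ZT18, a difference of 6.42 ± 0.34 (SE; limma adjusted p = 1.67e-11), or 85.4-fold. No other called feature differed as much. Its paralog Nr1d2 differed by 1.77 (11.4 to 11.63 against 9.66 to 9.84). Per2 (-2.51), Cry1 (-2.37) and Cry2 (-0.91), the repressors of CLOCK and BMAL1, were higher at ZT18. With ZT6a alone these differences were -1.67, -2.17 and -0.42. The positive limb showed how the pair of times can miss a rhythm: Clock differed by -0.04 and Npas2 by 0.05, although Npas2 averaged 7.4 at ZT2 and 4.31 at ZT10. Among the 16 PAR bZIP factors and clock outputs, Dbp was called higher at ZT6 (6.25%, against the same 0.392%). Called higher at ZT18 were 5 genes (31.2%, against the same 0.743%): Usp2, Lonrf3, Tspan4, Wee1 (a kinase that holds back mitosis) and Nfil3 (the repressor that binds D-boxes). Tspan4 read 8.91, 8.82 and 8.52 at ZT6 and 10.49, 10.77 and 10.82 at ZT18, and it was called with ZT6a alone too (-1.78, adjusted p = 0.02). Usp2 was not called so: ZT6a read 8.14, close to 8.33 to 8.57 at ZT18, and its difference with that array alone was -0.34 against -2.88.

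Of 20 measured glycogen genes 3 were called, all higher at ZT18, in the dark phase (15%, against 0.743% of all features). They were the glycogen-targeting subunits of protein phosphatase 1 Ppp1r3b and Ppp1r3c, which bring the phosphatase to glycogen synthase, and the liver synthase Gys2. Ppp1r3b read 11.96, 11.94 and 12.08 at ZT6 and 14.89, 14.32 and 14.49 at ZT18. The groups lay over 2 log2 units apart, with a difference of -2.57 ± 0.36 (limma adjusted p = 0.000446). It was of like size with ZT6a alone (-2.61, adjusted p = 0.036). Ppp1r3c read 12.43, 12.14 and 12.4 against 14.63, 14.15 and 14.46, a difference of -2.09 ± 0.30. Gys2 differed by -0.94 and passed narrowly (adjusted p = 0.0498). The median over all 20 members was -0.112, against 0.007 over all features. In glycolysis and glucose entry 1 of 18 members was called (5.56%, against the same 0.743%), the liver pyruvate kinase Pklr. It read 11.87, 10.74 and 9.99 at ZT6 and 12.44, 13.32 and 13.29 at ZT18. Its difference of -2.15 was -1.15 with ZT6a alone. In that list 15 of 18 differences were below 0, with a median of -0.36. The list of gluconeogenesis had 1 of 18 called (5.56%), Slc37a4, the transporter that moves glucose 6-phosphate into the endoplasmic reticulum, at -1.46. Of these 18, 6 lay wholly higher at ZT6 (33.3%, against 9.08% of all features) and 4 wholly higher at ZT18 (22.2%, against 10.2%). In limma 8 had an unadjusted p under 0.05, and the list's median was -0.18. Pck1, which commits carbon to glucose, had values of 16.77, 17.17 and 17.92 at ZT6 and 16.04, 16.63 and 16 at ZT18, without a call (1.06, limma adjusted p = 0.269).

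The called members of the fatty acid synthesis list were also higher at ZT18. Thrsp, a lipogenic protein induced by carbohydrate and thyroid hormone, read 15.63, 14.33 and 12.62 at ZT6 and 17.02, 17.44 and 17.36 at ZT18. Every ZT18 array was higher than every ZT6 array, but the ZT6 arrays spread over 3 log2 units, and the difference of -3.08 ± 0.60 (limma adjusted p = 0.00875) was -1.64 with ZT6a alone. Acacb, the acetyl-CoA carboxylase at mitochondria, was the other called member of 16, at -1.21. The 2 are 12.5% of the list, against 0.743% of all features called higher at ZT18. Fasn, the fatty acid synthase, gave -1.24 with an adjusted p of 0.0644 and no overlap (13.86 to 14.87 against 15.48 to 15.8). Of 24 glycerolipid and lipid droplet genes 17 had differences below 0 and 8 lay wholly higher at ZT18 (33.3%, against 10.2% of all features and 15% of those above the median level). The called member (4.17%, against the same 0.743%) was Agpat2, which makes phosphatidic acid, at -1.25 ± 0.26 (14.83, 14.33 and 15.18 against 15.82, 16.01 and 16.26). Of 15 genes listed under phosphatidylcholine and phosphatidylethanolamine synthesis, Gde1 (a glycerophosphodiester phosphodiesterase) and Chpt1 (choline phosphotransferase) were called higher at ZT18 (13.3%, against the same 0.743%). The phosphodiesterase Gde1 is not itself an enzyme of synthesis. Gde1 read 10.32, 10.67 and 10.32 at ZT6 and 11.88, 11.9 and 11.84 at ZT18. Chpt1 differed by -1.16, and by -0.39 with ZT6a alone. None of the 29 fatty acid oxidation and ketogenesis genes was called by limma (7 had an unadjusted p under 0.05); the lowest adjusted p, 0.0691, was that of the carnitine carrier Slc25a20.

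The called exporters of sterols and bile salts were higher at ZT6. Abcg8 read 12.3, 12.22 and 12.64 at ZT6 and 10.58, 10.48 and 9.88 at ZT18, a difference of 2.07 ± 0.30 (limma adjusted p = 0.000612). Its partner Abcg5, which lies next to it in the genome, had no overlap and a difference of 1.47 with an adjusted p of 0.0673. Abcb11, the bile salt export pump of the canalicular membrane, read 14.5, 14.87 and 14.52 against 13.57, 13.41 and 13.89 (1.01 ± 0.19). Insig1, which holds SREBP in the endoplasmic reticulum, was higher at ZT18 (-1.09). Of 20 bile acid synthesis genes none was called and 8 had an unadjusted p under 0.05 in limma. The lowest adjusted p there, 0.0554, was that of Cyp7a1, the rate-limiting enzyme, with 15.24, 14.7 and 14.62 at ZT6 and 16.35, 16.66 and 16.54 at ZT18. The list's median was -0.348 with 3 ZT6 arrays and 0.06 with ZT6a alone. For the 16 cholesterol synthesis genes, none called and 2 at an unadjusted p under 0.05, it was -0.143 and 0.282. Hmgcs1, the synthase before HMG-CoA reductase, gave 1.07 (adjusted p = 0.0594).

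**Figure D3:**
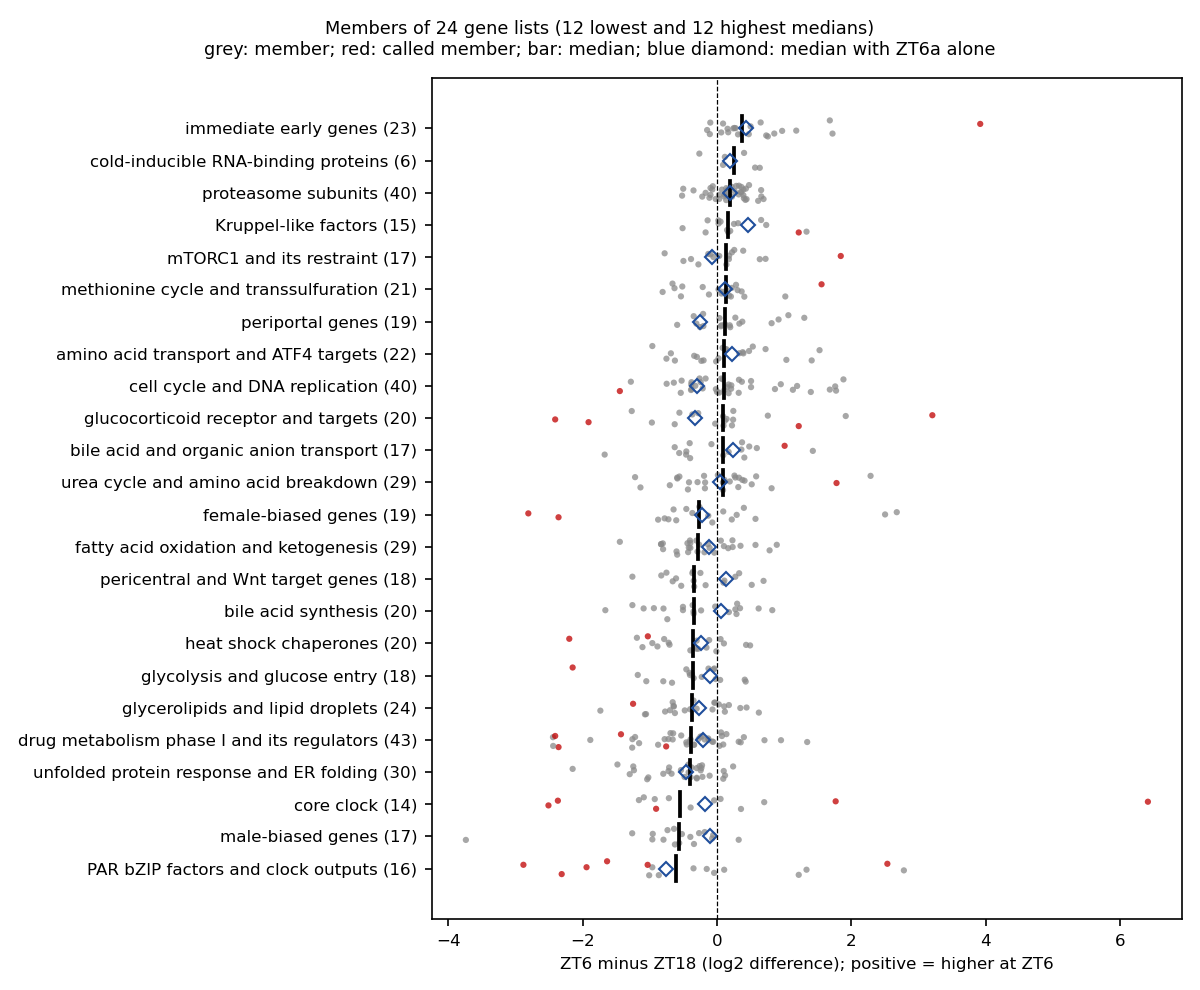
Difference (log2, ZT6 minus ZT18) of each member of 24 gene lists, those with the 12 lowest and 12 highest medians of 48, with the number of measured members in brackets. Grey points are members, red points called members, bars medians of the members and blue diamonds medians with ZT6a alone; the dashed line is the median of all features, 0.007. Medians run from -0.608 (PAR bZIP factors and clock outputs) to 0.37 (immediate early genes), and for bile acid synthesis, pericentral, periportal, cell cycle, glucocorticoid and mTORC1 genes the diamond lies on the other side of 0.

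Most genes of the unfolded protein response list had differences below 0, and none of that list was called. Of 30 unfolded protein response and folding genes, 26 had differences below 0 and 17 lay wholly higher at ZT18 (56.7%, against 10.2% of all features and 15% of those above the median level), 1 wholly higher at ZT6; none was called by limma and 12 had an unadjusted p under 0.05. The median was -0.408, and -0.467 with ZT6a alone. Hspa5, the main chaperone of the compartment, read 16.76, 16.77 and 17.13 at ZT6 and 18.03, 18.17 and 18.2 at ZT18. These groups do not overlap, but the spread at other times, which enters the fit, is larger, and the difference of -1.25 ± 0.35 had an adjusted p of 0.0847. Creld2 (-2.15, adjusted p = 0.206) and Sdf2l1 (-1.48, adjusted p = 0.133), both induced by misfolded protein, did not overlap either. Lists drawn up after these values were seen carry the description on to the rest of the secretory route and give no independent support. Of 38 genes of translocation into the endoplasmic reticulum and its quality control, all 38 differences were below 0, with a median of -0.312. After quantile normalization 2 lay above 0, and 6 did with ZT6a alone. Called higher at ZT18 were 3 (7.89%, against 0.743% of all features): Fkbp14 (a prolyl isomerase), Uggt1 (which tags misfolded glycoproteins) and Ero1a (a disulphide-forming oxidase). With ZT6a alone the list's median was -0.318. Of 42 genes of vesicle transport between the endoplasmic reticulum and the Golgi, 34 were below 0. Wholly higher at ZT18 lay 21 (50%, against the same 10.2% and 15%), and none wholly higher at ZT6. Called higher at ZT18 were 3 (7.14%, against the same 0.743%): Sec23b of the COPII coat, Copg1 of the COPI coat and the cargo receptor Tmed3. Sec23b read 9.12, 9.02 and 9.18 at ZT6 and 10.39, 10.54 and 10.78 at ZT18, a difference of -1.46 ± 0.32 (limma adjusted p = 0.0235).

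Called cytosolic chaperones were higher at ZT18 as well. Of 20 heat shock chaperones 16 had differences below 0. Hsph1, a nucleotide exchange factor for HSP70, and Chordc1, a co-chaperone of HSP90, were called higher at ZT18 (10%, against 0.743% of all features). Hsph1 read 9.76, 8.6 and 10.52 at ZT6 and 11.62, 12 and 11.86 at ZT18 (-2.20 ± 0.48, limma adjusted p = 0.0232). Differences in the protein synthesis and respiration lists were small and mostly below 0. Of 55 cytosolic ribosomal proteins 43 were below 0, 11 lay wholly higher at ZT18 and none wholly higher at ZT6, with a median of -0.187 (-0.068 after quantile normalization), none called and 4 at an unadjusted p under 0.05 in limma. Of 75 respiratory chain and ATP synthase genes 62 were below 0, 27 lay wholly higher at ZT18 and 1 at ZT6, with a median of -0.197 (-0.132), none called and 18 at an unadjusted p under 0.05. Rps15 (-0.59, adjusted p = 0.144) and Ndufb6 (-0.70, adjusted p = 0.112) had the lowest adjusted p of these lists. Of 31 translation factors Eif1a alone was called (3.23%, against the same 0.743%), at -0.92. Beside these counts stands the background of features above the median level, of which 10% lay wholly higher at ZT6 and 15% wholly higher at ZT18, with a median of -0.053.

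Both called members of the autophagy and lysosome list were higher at ZT6, and the proteasome list held no call. Of 40 proteasome subunits 29 had differences above 0, 12 lay wholly higher at ZT6 (30%, against 9.08% of all features and 10% of those above the median level) and 2 wholly higher at ZT18; the median was 0.19, and 0.195 with ZT6a alone. None was called by limma and 9 had an unadjusted p under 0.05. Psmd4, a ubiquitin receptor of the proteasome, read 12.05, 12.1 and 12.01 at ZT6 and 11.5, 11.47 and 11.22 at ZT18 (adjusted p = 0.0799). Of 41 autophagy and lysosome genes 9 lay wholly higher at ZT6 (22%, against the same 9.08% and 10%) and none wholly higher at ZT18, and 2 were called (4.88%, against 1.13% of all features). Ulk1, the kinase that starts autophagy, read 8.32, 8.25 and 8.57 at ZT6 and 6.65, 7.04 and 6.88 at ZT18, 1.52 ± 0.25 (limma adjusted p = 0.00187). Calcoco1, a receptor for selective autophagy, differed by 1.07. The receptor Sqstm1 (0.70) and the ATG8 proteins Gabarapl1 (1.32) and Map1lc3b (0.39) were without overlap and not called. The median of the list was 0.03, with 21 of 41 differences above 0. Flcn, folliculin, which with its partners acts on the lysosomal nutrient switch of mTORC1 and TFEB, read 9.64, 9.59 and 9.4 against 7.53, 7.84 and 7.73, 1.84 ± 0.29 (limma adjusted p = 0.000993). It was the called member among 17 genes of mTORC1 and its restraint (5.88%, against 0.392% of all features called higher at ZT6).

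Amino acid and mitochondrial carrier genes contributed several of the largest differences at ZT6. Cbs, which condenses homocysteine with serine in transsulfuration, read 15.52, 15.62 and 16.02 at ZT6 and 14.53, 13.99 and 13.97 at ZT18 (1.56 ± 0.29, limma adjusted p = 0.00555). Cth, the next enzyme, gave 1.02 with an adjusted p of 0.0897 and no overlap. Agxt, which detoxifies glyoxylate, read 11.61 in ZT6a and 13.13 and 13.06 in ZT6b and ZT6c against 10.68 to 10.93 at ZT18, so 0.79 of its difference of 1.78 remained with ZT6a alone. Got1, the cytosolic aspartate aminotransferase, showed the same order of arrays (12.75, 15.17 and 15.01 against 11.36 to 12.56) and was not called (adjusted p = 0.119). Among 34 SLC25 carriers of the inner mitochondrial membrane 3 were called, all higher at ZT6 (8.82%, against 0.392% of all features). At each time 8 lay wholly higher (23.5%, against 9.08% of all features at ZT6 and 10.2% at ZT18), and the median was -0.068. Slc25a47, a carrier found mainly in liver, read 14.82, 14.93 and 14.45 at ZT6 and 12.62, 12.66 and 12.83 at ZT18 (2.03 ± 0.30, limma adjusted p = 0.000738). Its difference with ZT6a alone was 2.12 (adjusted p = 0.042). The glutamate carrier Slc25a22 read 10.96, 11.75 and 11.84 against 9.79 to 10. Slc25a30 read 8.74, 10.15 and 9.96 against 6.56 to 7.22, and neither of these was called with ZT6a alone.

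NAD genes were called at ZT18. Nampt, the rate-limiting enzyme of the salvage of nicotinamide, read 9.55, 9.57 and 10 at ZT6 and 11.67, 11.43 and 11.42 at ZT18, -1.80 ± 0.32 (limma adjusted p = 0.00388). Nmrk1, the nicotinamide riboside kinase, read 10.68, 10.84 and 10.95 against 12.11, 12.14 and 11.93, -1.24 ± 0.23 (limma adjusted p = 0.00555). The 2 are 9.09% of the list, against 0.743% of all features called higher at ZT18. The other 20 of 22 members were not called, and the median was -0.052, or 0.003 after quantile normalization.

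Hormone and growth signals gave mixed lists. Of 20 glucocorticoid receptor genes and targets, Mt1 and Klf9 were called higher at ZT6, and Tsc22d3 (the glucocorticoid-induced leucine zipper) and Zbtb16 higher at ZT18. Each direction held 10% of the list, against 0.392% of all features called higher at ZT6 and 0.743% called higher at ZT18. Tsc22d3 read 9.87, 8.94 and 10.31 at ZT6 and 11.73, 12.14 and 12.48 at ZT18. Mt1 followed the split of the ZT6 arrays: it read 10.53, 13.17 and 15.3, against 9.37, 10.25 and 9.76 at ZT18, and its difference of 3.21 was 2.06 without ZT6c (limma adjusted p = 0.138) and 0.74 with ZT6a alone. Its neighbour Mt2 (7.25, 10.32 and 11.78 at ZT6) was not called. Of 23 immediate early genes, those that respond to a stimulus within minutes, 20 had differences above 0, with a median of 0.37. Wholly higher at ZT6 lay 8 (34.8%, against 9.08% of all features and 10% of those above the median level), and none wholly higher at ZT18. Egr1 was the called member (4.35%, against 0.392% of all features called higher at ZT6). It read 11.35, 10.1 and 8.79 at ZT6 and 5.7, 6.98 and 5.8 at ZT18 (3.92 ± 0.93, limma adjusted p = 0.0382). Junb (1.72, adjusted p = 0.0787) and Myc (1.68, adjusted p = 0.505) did not overlap and were not called.

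The called drug metabolism genes were higher at ZT18, several with a smaller difference in ZT6a than in ZT6b and ZT6c. Of 43 genes of phase I and its regulators 21 lay wholly higher at ZT18 (48.8%, against 10.2% of all features and 15% of those above the median level) and 2 wholly higher at ZT6 (4.65%, against 9.08% and 10%), with a median of -0.393, or -0.207 with ZT6a alone. Called were Nr1i3, Cyp2a4, Ces1g (a carboxylesterase) and Fmo1 (a flavin monooxygenase), 9.3% of the list against 0.743% of all features called higher at ZT18. Nr1i3, the xenobiotic receptor CAR, read 12.92, 10.06 and 11.4 at ZT6 and 14.08, 13.65 and 13.88 at ZT18, and its difference of -2.41 was -0.95 with ZT6a alone. Cyp2c37 (14.49, 11.09 and 11.31 against 14.62 to 14.85) showed the same order and was not called (adjusted p = 0.149). Fmo1 was steadier, at 16.09, 16.08 and 15.89 against 16.71, 16.91 and 16.71. Of 17 male-biased genes 16 had differences below 0 and 9 lay wholly higher at ZT18 (52.9%, against the same 10.2% and 15%). None was called and 6 had an unadjusted p under 0.05 in limma. The median of -0.563 was -0.11 with ZT6a alone. Bcl6, a repressor of female-biased genes, read 8.94, 5.43 and 5.91 at ZT6 and 10.39, 10.96 and 10.15 at ZT18 (adjusted p = 0.144). Of 19 female-biased genes Acot3 and Cyp2a4 were called, both higher at ZT18 (10.5%, against the same 0.743%). Acot3, a peroxisomal acyl-CoA thioesterase, read 7.46, 7.05 and 7.92 at ZT6 and 10.31, 10.41 and 10.14 at ZT18, a difference of -2.81 ± 0.34 (limma adjusted p = 5.39e-05) that was -2.83 with ZT6a alone. The medians of the 18 pericentral genes (-0.343) and the 19 periportal genes (0.12) turned to 0.128 and -0.247 with ZT6a alone, and neither list had a called member (4 and 3 at an unadjusted p under 0.05).

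A group that no list of the comparison held was the Nat8 family, picked out here after the values were seen. Its members are N-acetyltransferases, some of which act on cysteine conjugates in the formation of mercapturic acids. Of 9 measured members 5 were called, all higher at ZT18 (Nat8f5, Nat8f3, Nat8f6, Nat8 and Nat8f7), and Nat8f2 and Nat8f4 lay wholly higher at ZT18 without a call. The 5 are 55.6% of the measured family, against 0.743% of all features called higher at ZT18. Nat8f5 read 9.83, 7.95 and 8.8 at ZT6 and 12.44, 12.2 and 12.42 at ZT18, -3.49 ± 0.39 (limma adjusted p = 1.83e-05), or 11.3-fold. With ZT6a alone it was the 1 called member (-2.52, adjusted p = 0.021), Nat8f3 had an adjusted p of 0.062, and the median of the family went from -1.71 to -1.16. Nat8 read 7.37, 7.1 and 6.75 against 8.93, 9.05 and 8.53. Nat8f6 read 4.87, 4.52 and 4.68 against 6.58, 6.67 and 6.7. The member of the highest level, Nat8f2, differed by -0.58 (adjusted p = 0.245), and Nat8f1 by -0.44 with overlap. The 8 members from Nat8f7 to Nat8f1 lie together on chromosome 6 between 85706707 and 85915914 (GRCm38.p6), and Nat8l, on chromosome 5, differed by 0.35. The paralogs are close in sequence, so a probe set may read more than 1 of them.

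The promoters of the cluster are close too. Aligned locally, those of Nat8f6 and Nat8f7 shared 286 of 292 aligned bases (97.9%), those of Nat8 (at the start upstream in its gene) and Nat8f3 shared 203 of 206 (98.5%), and those of Nat8f5 and Nat8f2 shared 184 of 238 (77.3%). The 70 bases around the CCAAT box, in capitals, are printed for 3 called members and for Nat8f2, which was not called, on the minus strand of chromosome 6: chr6:85821000-85821069 for Nat8f5, chr6:85809912-85809981 for Nat8f6, chr6:85708604-85708673 for Nat8f7 and chr6:85869123-85869192 for Nat8f2.
Nat8f5: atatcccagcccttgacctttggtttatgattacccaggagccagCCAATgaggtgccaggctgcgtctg
Nat8f6: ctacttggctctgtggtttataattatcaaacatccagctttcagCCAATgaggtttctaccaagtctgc
Nat8f7: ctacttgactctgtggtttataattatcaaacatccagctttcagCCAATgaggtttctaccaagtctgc
Nat8f2: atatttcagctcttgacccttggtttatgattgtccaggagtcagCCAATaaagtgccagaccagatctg
The box lies 52, 59, 67 and 10 bases before the start in this order. It was also found, 28 bases before a start, in 1 of 2 promoters of Nat8f4, which was not called, and not in the promoter of Nat8f3, which was called, so holding it does not follow the calls.

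**Figure D4:**
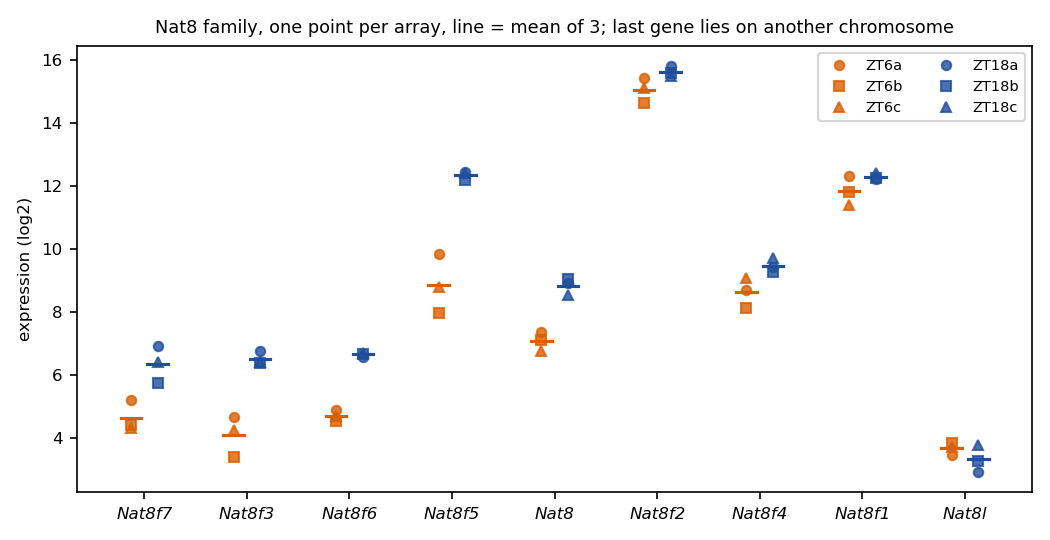
Deposited log2 level of the 9 measured Nat8 family genes, ordered by position along chromosome 6 except Nat8l at the right, with 1 point per array and a line at the mean of 3 (orange ZT6, blue ZT18). The first 5 genes, Nat8f7 to Nat8, are separated by 1.71 to 3.49 log2 units, while the means of Nat8f2, Nat8f4 and Nat8f1 lie 0.44 to 0.83 apart.

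Single genes of other families were also large. H1f2 read 6.61, 6.61 and 6.38 at ZT6 and 10.14, 9.24 and 9.44 at ZT18, -3.07 ± 0.48 (limma adjusted p = 0.000993). It was the called member among 6 linker histones (16.7%, against 0.743% of all features called higher at ZT18). Tk1, the thymidine kinase of DNA precursor salvage, was the called one of 40 cell cycle and DNA replication genes (2.5%, against the same 0.743%). Its difference was -1.45 (5.86, 5.25 and 6.17 against 7.52, 7.17 and 6.93). Hnrnpl was the called one of 37 splicing factors (2.7%, against 0.392% of all features called higher at ZT6), at 1.01. No member was called in the lists of lipoproteins and ANGPTL proteins (3 of 19 at an unadjusted p under 0.05 in limma), insulin receptor signalling (4 of 21), the IGF and growth hormone axis (6 of 15), amino acid transport and ATF4 targets (7 of 22), cold-inducible RNA-binding proteins (0 of 6), ribosome biogenesis (7 of 46), mitochondrial ribosomal proteins (9 of 75), acute phase, complement and coagulation (10 of 42), conjugation and antioxidant defence (9 of 43), heme and iron (5 of 30), or adiponectin receptors and AMPK (3 of 18). Over all features the count at this unadjusted p was 2992 of 22206, and 2010 of 11103 above the median level.

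The difference was then tested against those of the other pairs 12 h apart, which have 4 arrays per time. Against ZT2 minus ZT14, 216 features (0.973%) had a different difference, and against ZT10 minus ZT22, 195 (0.878%); 38 features were called in both tests, which share the ZT6 and ZT18 arrays. Of the 252 called features, 49 were called in the first of these tests, 54 in the second and 157 in neither. Ppp1r3b belongs to the last kind, with differences of -2.57, -2.20 (ZT2 minus ZT14) and -2.97 (ZT10 minus ZT22), and so does Flcn with 1.84, 1.06 and 1.08. Nat8f5 had -3.49 against -1.02 and -1.84, and the first of these pairs differed from it (adjusted p = 0.016). Slc25a47 had 2.03 against 0.06 (adjusted p = 0.014) and 2.76 (adjusted p = 0.58). Ppp1r3c had -2.09, 0.87 and -5.80, with both tests passed (adjusted p = 0.0002 and 6.2e-06). Nampt had -1.80, -3.19 and 1.18, differing from the latter (adjusted p = 0.00022).

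**Figure D5:**
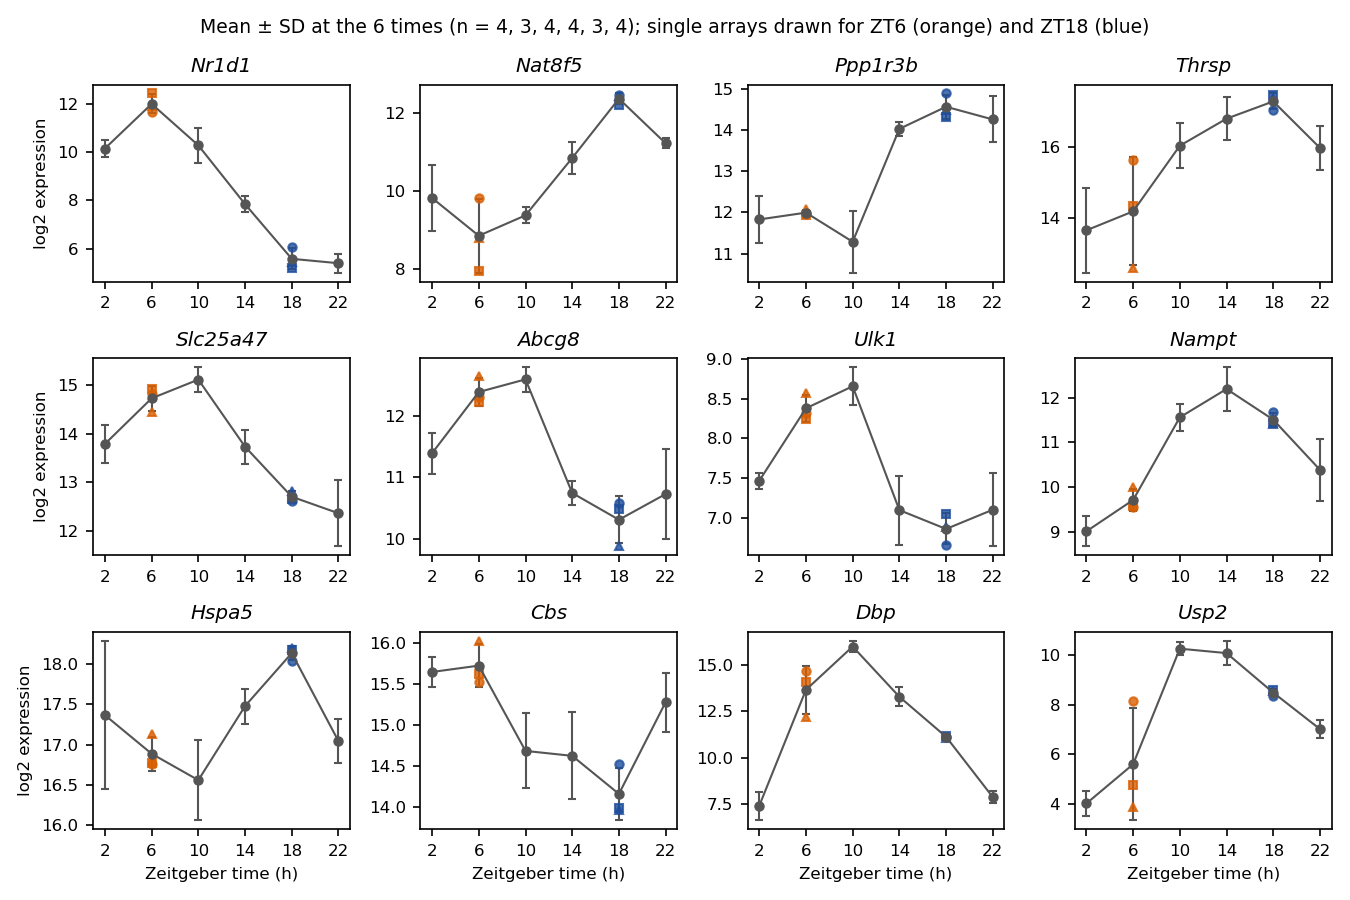
Mean ± SD of the deposited log2 level of 12 genes at 6 Zeitgeber times (ZT2, ZT10, ZT14 and ZT22 with 4 arrays, ZT6 and ZT18 with 3), with single arrays drawn at ZT6 (orange) and ZT18 (blue) and an axis of its own for each gene that does not start at 0. Nr1d1 is at its highest mean at ZT6 (12.0), Nat8f5 at ZT18 (12.35), while Dbp and Usp2 are highest at ZT10 and lie between their extremes at both compared times.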

How the data were processed

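Liver RNA of single mice was hybridised to Clariom S arrays, per the labels' protocols. The authors deposited 1 table of log2 values for 22 arrays; for its log base, summarisation and normalization the record was "not given in the sources used here", and base 2 was taken from the range of the values. Of 22206 features 19572 have 1 gene symbol in the platform annotation and 2634 none; a gene with several features is shown by the one of highest mean. A model of 6 time means over all 22 arrays was fitted with limma 3.58.1 in R 4.3.3 (residual df 16, prior df 7.96), without further normalization, and contrasts were tested two-sided with Benjamini-Hochberg adjustment over all features. The test was checked on simulated data. Arrays number 3 to 4 per time, which limits the precision, and slide or scan dates are not given. Array letters do not pair the times: the deviations of same-lettered arrays correlated at 0.0321, 0.0278 and 0.0208. Promoter alignments used Biopython.

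The gene lists and the rule for named genes were chosen with earlier results of these data known. Named were the 15 called genes of largest difference in each direction without overlap, leaving out predicted genes, up to 4 called members of each list (otherwise its member of lowest p), Adipoq, Tff3 and the 3 largest genes of each test against another pair; the Nat8, secretory route, linker histone and thioesterase lists and other genes named in the text were chosen after their values were seen. Lists are described by counts and medians and have no test.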

Additional observations from a re-analysis of the deposited data

Results flagged for a closer look

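The difference ZT6 minus ZT18 departed most from that of another 12 h pair in 5 genes; each departure was itself tested (limma, Benjamini-Hochberg adjustment over all features). Dbp, 2.54 between ZT6 and ZT18, departed by 8.42 ± 0.60 (SE; adjusted p = 9.84e-09) from ZT2 minus ZT14 (-5.88) and by -5.59 ± 0.60 (adjusted p = 6.18e-06) from ZT10 minus ZT22 (8.13). Its means over the day were 7.41, 13.7, 16.0, 13.3, 11.1 and 7.87 from ZT2 to ZT22. Noct, the clock-controlled gene of nocturnin, departed by 7.14 from ZT2 minus ZT14 (adjusted p = 0.0028), with ZT6 arrays at 6.93, 11.07 and 8.92. Mt1 departed by 6.82 from the same pair (adjusted p = 0.00051): it was 3.21 higher at ZT6 than at ZT18 and had a ZT2 minus ZT14 difference of -3.61. Usp2 departed by -6.12 from ZT10 minus ZT22 (adjusted p = 7.31e-05). Tubb2a, a beta-tubulin, departed by 5.13 from that pair (adjusted p = 2.1e-05), since its mean at ZT10 was 6.81 against 10.5 at ZT6, 10.4 at ZT18 and 11.8 at ZT22. Among the 4 arrays at ZT22, 1 read 6.47 for Usp2, apart from the other 3, the mean of the 4 being 7.01; in groups of 4, chance flags about 1 in 20.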

How the results depend on the processing

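All counts follow ZT6 minus ZT18, then its test against ZT2 minus ZT14, then against ZT10 minus ZT22, where the values reported were 252, 216 and 195. Leaving out 1 array of ZT6 or ZT18 gave 82 to 440, 107 to 383 and 102 to 351. Without ZT6b and ZT6c the counts were 44, 105 and 47, and without the 5 arrays of high Tff3 they were 59, 98 and 62. At an adjusted p under 0.01 they were 81, 57 and 80. Fitting the arrays of the compared times alone gave 109 and 135 for the first and second count, restricting to features above the median level gave 417 and 357, and array weights gave 342 for the second. The cause of these shifts was not tested, beyond the fewer arrays or features that enter. Quantile normalization (213, 211 and 207), median centring (223, 214 and 190), a trended robust prior (305, 280 and 227) and a 1.5-fold minimum (252, 216 and 195) kept each count within 1.5 times. With the array letter as a replicate block the counts were 201, 179 and 173, and 192 of the 201 were among the 252; the letters share only a label.

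Of the 57 called genes named by rule, none changed sign under any of these settings, which the lack of overlap already fixes where arrays are left out; 48 stayed called with the block and 48 after quantile normalization, 53 without ZT6a, 27 without ZT6b, 35 without ZT6c and 9 without both ZT6b and ZT6c. Among uncalled named genes, the sign turned without ZT6b and ZT6c, and equally without the 5 arrays, for Cyp1a2 (0.02), Tff3 (-0.05), Noct (-0.83) and Tubb2a (-0.72), and for Tubb2a it ranged from -0.1 to 0.6 when 1 array was left out. The cause was not tested. The number of arrays, 3 per time, and levels near the lower quartile limit what could be detected.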
